A study of Mus musculus with 12 samples.

Results

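Oxidative phosphorylation is carried out by 5 protein complexes of the inner mitochondrial membrane. Complexes I and II pass electrons from NADH and succinate to ubiquinone, complex III passes them to cytochrome c, and complex IV hands them to oxygen. Complexes I, III and IV pump protons as they do so, and complex V, the ATP synthase, lets the protons flow back to make ATP. Most subunits of these complexes are encoded in the nucleus, and the others in the mitochondrial genome. Regulatory T cells (Tregs), the Foxp3-expressing CD4+ cells that restrain immune responses, are known to depend on mitochondrial respiration more than conventional effector T cells do.

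The genes described here are the rows of the deposited expression table whose symbols begin with Nduf followed by a, b, c, s or v and a number (complex I), Uqcr (complex III), Cox4 to Cox8 (complex IV) or Atp5 (complex V), with the complex I assembly factors named Ndufaf left out. The rule used gene names and no measured value. It gave 80 genes of 17955, with 38 of complex I, 8 of complex III, 17 of complex IV and 17 of complex V. Complex II does not carry these names and was taken from a separate list, and the mitochondrially encoded subunits were not analysed here.

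The study compared 4 groups of 3 mice of the C57BL/6 strain aged 7 weeks. They were Foxp3YFP-creTKTfl/fl mice (cKO) given DMαKG, Foxp3YFP-creTKT+/+ mice (WT) given DMαKG, cKO mice given vehicle and WT mice given vehicle. All 4 groups carried the YFP-Cre fusion that the Foxp3 locus drives, so that Tkt, which encodes transketolase of the non-oxidative pentose phosphate pathway, is deleted in Foxp3-expressing cells of the cKO mice only. DMαKG, a cell-permeable ester of the Krebs cycle intermediate α-ketoglutarate, or vehicle was in the drinking water from the dams' pregnancy until the offspring were adult. CD4+CD25+YFP+ cells of the spleen and lymph nodes were sorted and their RNA was sequenced, 1 library per mouse. Replicates carry the labels' numbers, 1 to 3 with DMαKG and 2 to 4 with vehicle.

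Summed estimated counts ran from 1.57e+07 to 1.89e+07 per library, and 12903 genes passed the expression filter. Tkt had 31.5 to 37.8 CPM (counts scaled to library size) in cKO mice given DMαKG against 110 to 194 CPM in WT mice given DMαKG, and 26.2 to 41.8 CPM in cKO mice against 102 to 133 CPM in WT mice given vehicle. Its log2 fold change was -2.08 with DMαKG (edgeR adjusted p = 0.00389) and -1.72 with vehicle (edgeR adjusted p = 0.0148). All 8 Treg markers of the list used were detected, and they summed to 6180 to 7013 CPM in cKO mice given DMαKG, 4888 to 6008 CPM in WT mice given DMαKG, 4286 to 5167 CPM in cKO mice given vehicle and 4629 to 4729 CPM in WT mice given vehicle.

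The Tregs of all 4 groups held RNA of 73 of the 80 subunit genes at a mean above 10 TPM (a transcript level scaled by length and depth), and 0 subunit genes passed an adjusted p of 0.05 in any comparison. Fold changes were small, with most estimates above 0 in cKO mice and with DMαKG. In 2 libraries, cKO with vehicle replicate 4 and cKO with DMαKG replicate 3, nearly all subunit genes were high together. Without them the median differences between cKO and WT mice were near 0. They were picked after the values were seen and were the highest of their groups, so a fall was built in. In bulk RNA, fewer cells of a type and less RNA per cell cannot be told apart.

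The nuclear respiratory genes have no single promoter architecture, but many are known to carry sites for nuclear respiratory factor 1 (NRF1), for the ETS-family factor GABPA, also called nuclear respiratory factor 2, and for YY1. RefSeq promoters of the GRCm38.p6 assembly, from 250 bases before to 50 bases after a start, were held for 64 of the 80 genes and were searched on both strands for the letters GCGCNTGCG (NRF1), CCGGAAG (ETS), AAGATGGCG (YY1) and GGGCGG (SP1). The NRF1 letters were in 22 of the 64 (34.4%), against 14.8% of 10373 tested genes and 7.12% of all 27025 genes with a promoter entry. The ETS letters were in 15 (23.4%), against 19.8% of tested and 9.93% of all genes. The YY1 letters were in 7 (10.9%), against 3.43% of tested and 1.64% of all genes. The SP1 letters were in 25 (39.1%), against 65.9% of tested and 38.2% of all genes. NRF1, ETS or YY1 letters were in 36 of the 64 genes, and 6 genes held both NRF1 and ETS letters. A match of letters is a description and not a site shown to be bound.

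The sequences below are the 160 bases before the start, 5′ to 3′ on the strand of the gene, with matches to the NRF1, ETS or YY1 letters on either strand in capitals. They show the subunit gene that varied most between libraries after Cox6b2 and the one that varied least (Ndufb4 and Ndufs3), further genes described below (Ndufb10, Uqcrh, Atp5g2 and Atp5b) and 1 gene that overlaps Gabpa and holds both ETS and YY1 letters before its second start, within its own span (Atp5j). Ndufb4 holds the NRF1 letters in 2 places in this stretch, Ndufb10 and Atp5g2 hold them in 1 place, where the Atp5g2 match is read on both strands with 1 base of offset, and Atp5b holds none of the 3 motifs.
Ndufb4, chr16:37654369-37654528, minus strand: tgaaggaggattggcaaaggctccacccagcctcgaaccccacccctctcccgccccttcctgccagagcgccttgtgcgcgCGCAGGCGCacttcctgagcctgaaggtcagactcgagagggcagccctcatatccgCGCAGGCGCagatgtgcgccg
Ndufb10, chr17:24724424-24724583, minus strand: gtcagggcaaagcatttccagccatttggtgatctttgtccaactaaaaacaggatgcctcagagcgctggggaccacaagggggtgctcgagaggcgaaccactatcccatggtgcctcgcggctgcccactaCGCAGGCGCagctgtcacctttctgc
Atp5g2, chr15:102671048-102671207, minus strand: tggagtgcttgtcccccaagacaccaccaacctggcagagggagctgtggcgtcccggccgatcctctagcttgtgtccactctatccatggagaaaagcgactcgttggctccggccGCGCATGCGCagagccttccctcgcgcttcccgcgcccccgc
Uqcrh, chr4:116075071-116075230, minus strand: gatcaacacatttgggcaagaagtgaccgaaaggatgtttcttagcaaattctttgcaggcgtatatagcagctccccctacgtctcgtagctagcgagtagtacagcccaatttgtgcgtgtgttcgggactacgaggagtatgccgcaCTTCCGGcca
Ndufs3, chr2:90904722-90904881, minus strand: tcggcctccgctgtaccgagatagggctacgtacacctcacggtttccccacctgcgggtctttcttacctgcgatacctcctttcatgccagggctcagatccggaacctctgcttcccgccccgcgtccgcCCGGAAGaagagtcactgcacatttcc
Atp5j, chr16:84834977-84835136, minus strand: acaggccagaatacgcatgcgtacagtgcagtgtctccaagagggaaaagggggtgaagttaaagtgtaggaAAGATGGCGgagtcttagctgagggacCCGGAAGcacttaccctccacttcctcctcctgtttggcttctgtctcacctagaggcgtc
Atp5b, chr10:128083147-128083306, plus strand: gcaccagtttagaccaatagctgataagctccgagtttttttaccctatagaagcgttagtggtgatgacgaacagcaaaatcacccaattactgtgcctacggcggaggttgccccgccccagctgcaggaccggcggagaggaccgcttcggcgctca

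Levels are given first in TPM, which are scaled by length and can be compared between genes. The most abundant was Atp5b, the catalytic β subunit of ATP synthase, with a mean of 830 TPM, followed by Cox4i1, the ubiquitous form of the regulatory subunit 4 of complex IV, with 731 TPM. Cox7a2l had 612 TPM, and Atp5a1, the α subunit of ATP synthase whose gene overlaps Haus1, had 564 TPM. Uqcrh, the hinge protein that binds cytochrome c1, had 486 TPM. The median level was 347 TPM for complex V genes, 152 TPM for complex IV, 147 TPM for complex III and 101 TPM for complex I. These medians include genes that failed the expression filter, most of them in complex IV. Over the 12 complex IV genes that passed it, the median was 245 TPM. The levels of a gene in the 12 libraries lay close together compared with these differences between genes.

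**Figure D1:**
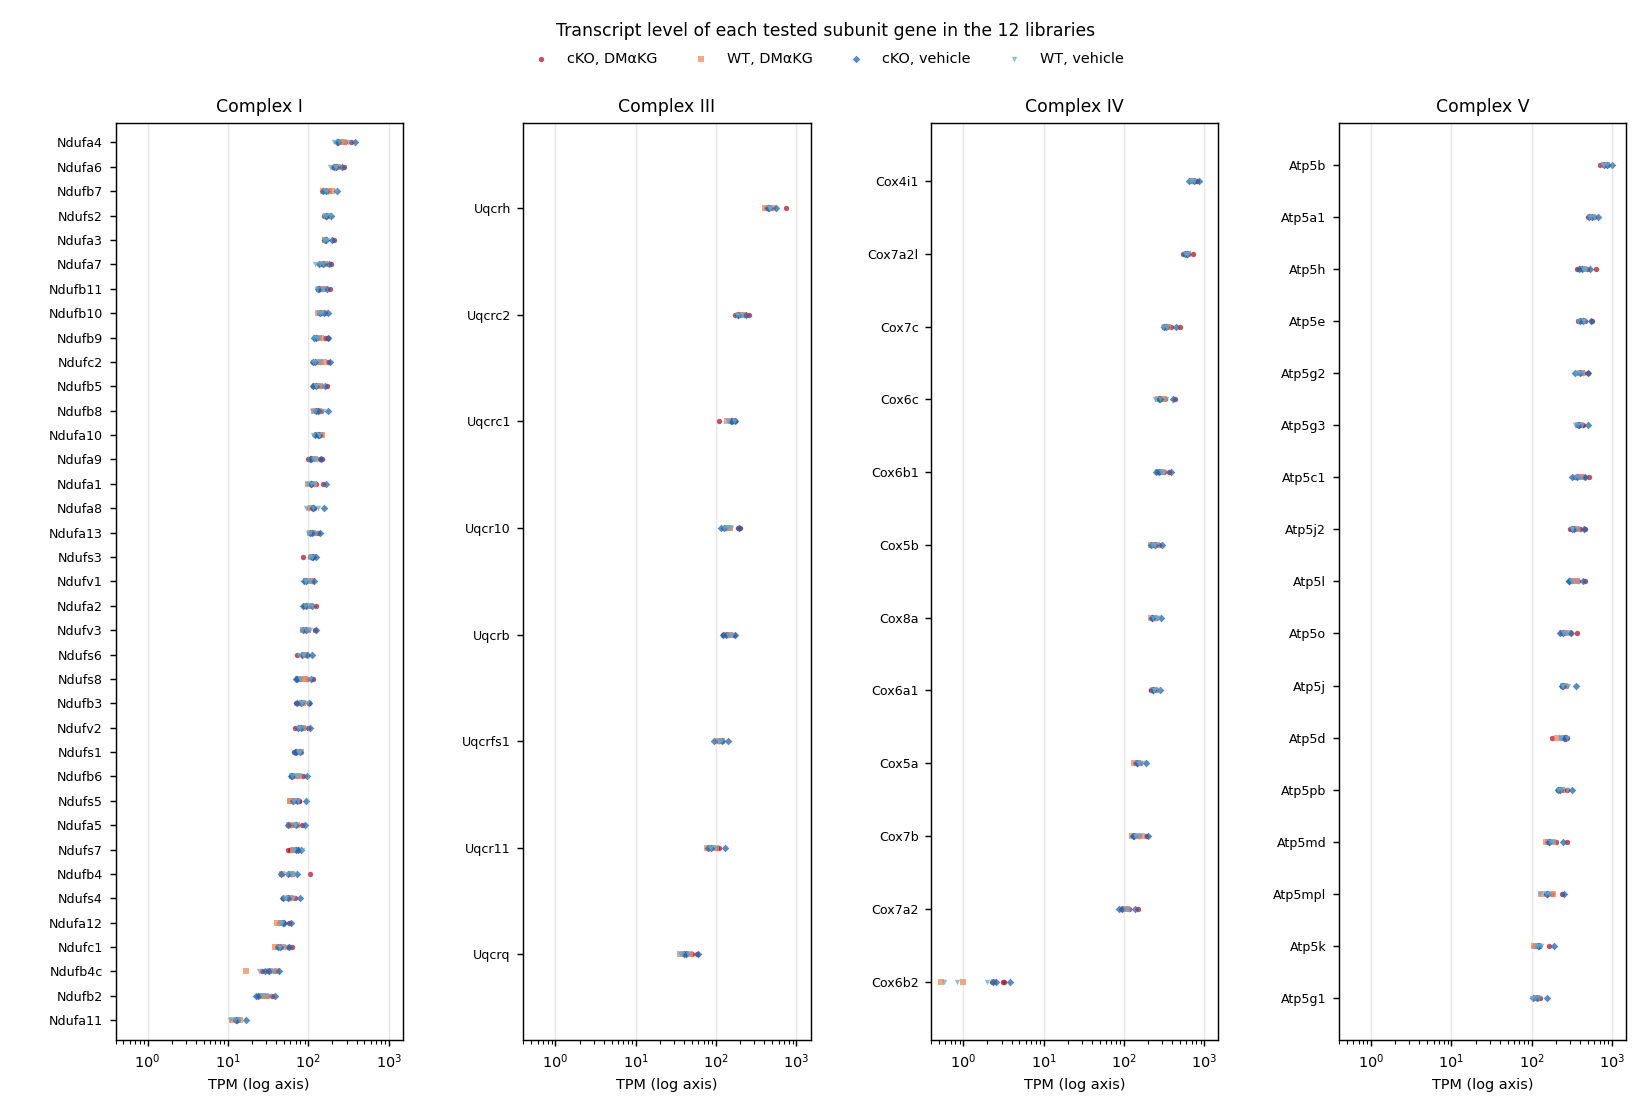
Levels of the 74 tested subunit genes by complex, ordered by mean, with TPM on a log axis and 1 point per library, coloured by group (3 libraries each). Cox6b2, with a mean of 2.05 TPM, lies far below the other genes of complex IV.

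Within complex I the highest gene was Ndufa4, with a mean of 272 TPM, whose protein is now known to belong to complex IV despite its name. The lowest of the tested genes was Ndufa11, a membrane-arm subunit, with 13.0 TPM. Its deposited values imply a length of 2612 bases, against 918 bases of the nearest annotated transcript, so its level per length may be set too low. In complex III the lowest was Uqcrq, a small subunit, with 44.4 TPM, whose gene overlaps Gdf9 so that its counts are uncertain. In complex V the lowest was Atp5g1 with 118 TPM.

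Subunit c, which forms the rotating ring of ATP synthase, is encoded by 3 genes that give the same mature protein. Atp5g2 made up a mean of 44.5% of their summed TPM, Atp5g3 42.9% and Atp5g1 12.6%. The share of Atp5g1 lay between 11.8% and 13.3% in the 12 libraries, that of Atp5g2 between 41.7% and 48.7%, and that of Atp5g3 between 39.5% and 45.8%. The order of Atp5g1 below the other two held in every library.

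The tissue-restricted forms were at or near the bottom. Ndufa4l2, the form known from hypoxic cells, was listed at 0 in all 12 libraries, and Cox8b and Cox8c had a count of 1 each over all 12 libraries. Cox4i2, the lung form, had a mean of 0.20 TPM beside 731 TPM of Cox4i1, and Cox6a2, the heart and muscle form, 0.92 TPM beside 240 TPM of Cox6a1. Cox7a1, another heart and muscle form, had 1.14 TPM beside 111 TPM of Cox7a2. Ndufa4l2 overlaps Shmt2, Cox4i2 overlaps Bcl2l1 and Cox6a2 overlaps Itgad. These 6 genes failed the expression filter and were not tested. Cox6b2, the testis form, had 2.05 TPM beside 301 TPM of Cox6b1, with 96 counts over all 12 libraries, and it was the only tissue-restricted form among the 74 genes tested.

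The question of the first comparison was whether loss of transketolase changes respiratory chain RNA, with vehicle. Of 74 tested subunit genes 0 passed an adjusted p of 0.05 (smallest adjusted p = 0.603, edgeR), where 0.062% of all genes did. At an unadjusted p below 0.05 there was 1, Cox6b2, where 7.29% of all genes were below it. Log2 fold changes were above 0 for 72 of 74, against 51.6% of all genes, with a median of 0.17 and a range of -0.0009 to 1.38. The median was 0.19 for complex I, 0.16 for complex III, 0.13 for complex IV and 0.18 for complex V. The median standard error of a member's log2 fold change was 0.19, so single changes of this size could not be called.

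Without cKO replicate 4 the median log2 fold change with vehicle was -0.007. It was 0.28 without cKO replicate 2 and 0.11 without WT replicate 3, the library in which all 74 genes were below their mean.

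Cox6b2 (chromosome 7, 4751792 to 4753094) had 0.758, 0.549 and 0.567 CPM in cKO mice, against 0.169, 0.111 and 0.420 CPM in WT mice given vehicle. The groups did not overlap, and the log2 fold change was 1.38 (SE 0.56, unadjusted p = 0.030, edgeR adjusted p = 0.603). It is the testis form of the subunit that lies between the monomers of the complex IV dimer. Each value stands for a handful of reads.

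Ndufs3 (chromosome 2, 90894627 to 90904721), a core subunit of the matrix arm of complex I, had 44.7, 46.6 and 52.8 CPM in cKO mice, against 41.7, 39.9 and 42.6 CPM in WT mice given vehicle. The log2 fold change was 0.21 (95% interval -0.009 to 0.44, edgeR adjusted p = 0.706). These 2 genes were the only ones of the 74 whose cKO values all lay above the WT values, where 8.29% of all genes did so, and none lay wholly below, where 7.01% of all genes did.

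The other genes with the smallest p-values of their complexes overlapped between groups. Uqcrc1, core protein 1 of complex III, averaged 117 ± 9.82 CPM in cKO mice and 103 ± 10.2 CPM in WT mice (SD, n = 3 each). Cox4i1 averaged 235 ± 40.9 CPM in cKO mice and 211 ± 15.1 CPM in WT mice. Atp5g3 averaged 129 ± 25.6 CPM in cKO mice and 110 ± 9.66 CPM in WT mice, and Atp5b 734 ± 117 CPM in cKO mice and 636 ± 39.9 CPM in WT mice. Ndufb10, an accessory subunit of the proton-pumping arm, had 38.1, 45.2 and 52.3 CPM in cKO mice, against 39.2, 35.4 and 39.4 CPM in WT mice. Uqcrq had 26.4, 27.2 and 40.6 CPM in cKO mice, against 24.6, 22.4 and 28.1 CPM in WT mice. In each of these 6 genes at least 1 cKO mouse lay within the WT range or below it.

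With DMαKG, the comparison of cKO with WT mice likewise gave 0 of 74 subunit genes at an adjusted p of 0.05 (smallest 0.451, edgeR), where 0.186% of all genes passed. At an unadjusted p below 0.05 there were 2, Cox6b2 and Ndufc1, where 10.4% of all genes were below it. Log2 fold changes were above 0 for 72 of 74, against 50% of all genes, with a median of 0.21. The median was 0.19 for complex I, 0.25 for complex III, 0.24 for complex IV and 0.24 for complex V. Without cKO replicate 3 the median was 0.03, and 0 subunit genes had an unadjusted p below 0.05. Without cKO replicate 2 the median was 0.36, and 29 of 74 subunit genes and 14.2% of all genes had one. With all libraries the 2 estimates below 0 were those of the core subunits Ndufs7 (-0.08) and Ndufs3 (-0.05).

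Ndufc1, a small accessory subunit of complex I, had 9.71, 7.68 and 12.8 CPM in cKO mice, against 8.55, 6.58 and 6.62 CPM in WT mice given DMαKG. Its log2 fold change was 0.47 (SE 0.22, unadjusted p = 0.046, edgeR adjusted p = 0.464), and 1 cKO value lay within the WT range. Cox6b2 had 0.712, 0.519 and 0.827 CPM in cKO mice, against 0.527, 0.113 and 0.213 CPM in WT mice (log2 fold change 1.26, unadjusted p = 0.042, edgeR adjusted p = 0.451). Its groups overlapped here by a narrow margin.

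Ndufb4 (chromosome 16, 37647602 to 37654368), an accessory subunit of the proton-pumping arm, had 11.9, 11.2 and 23.6 CPM in cKO mice, against 12.2, 11.5 and 8.22 CPM in WT mice given DMαKG. Its log2 fold change of 0.55 (SE 0.28, edgeR adjusted p = 0.531) came from 1 mouse, since the other 2 cKO values lay within the WT range. Ndufb4c is a copy of Ndufb4 and overlaps Mroh5, so reads may have been split between the copies and both are uncertain. Uqcrh had 113, 93.5 and 202 CPM in cKO mice against 121, 106 and 86.3 CPM in WT mice given DMαKG (log2 fold change 0.38, edgeR adjusted p = 0.603), with the same single high mouse.

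Cox7c, a small complex IV subunit, averaged 80.7 ± 28.3 CPM in cKO mice and 62.1 ± 6.47 CPM in WT mice given DMαKG. Atp5o, the protein of the peripheral stalk that confers oligomycin sensitivity, averaged 111 ± 33.3 CPM in cKO mice and 87.3 ± 14.5 CPM in WT mice. Uqcr10, a small complex III subunit, averaged 33.8 ± 9.54 CPM in cKO mice and 25.8 ± 2.32 CPM in WT mice. Atp5md, a membrane subunit of ATP synthase dimers whose gene overlaps Taf5, averaged 33.4 ± 13.5 CPM in cKO mice and 23.7 ± 3.65 CPM in WT mice. In each the cKO SD was larger than the WT SD. In 3 genes, Atp5g3, Cox5a and Ndufb8, all cKO values lay above all WT values, where 7.92% of all genes did so, and in 0 genes they all lay below, where 7.04% of all genes did. Cox5a and Ndufb8 were picked after the values were seen. Atp5g3 had 140, 129 and 150 CPM in cKO mice against 122, 125 and 111 CPM in WT mice given DMαKG (log2 fold change 0.23, edgeR adjusted p = 0.596).

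**Figure D2:**
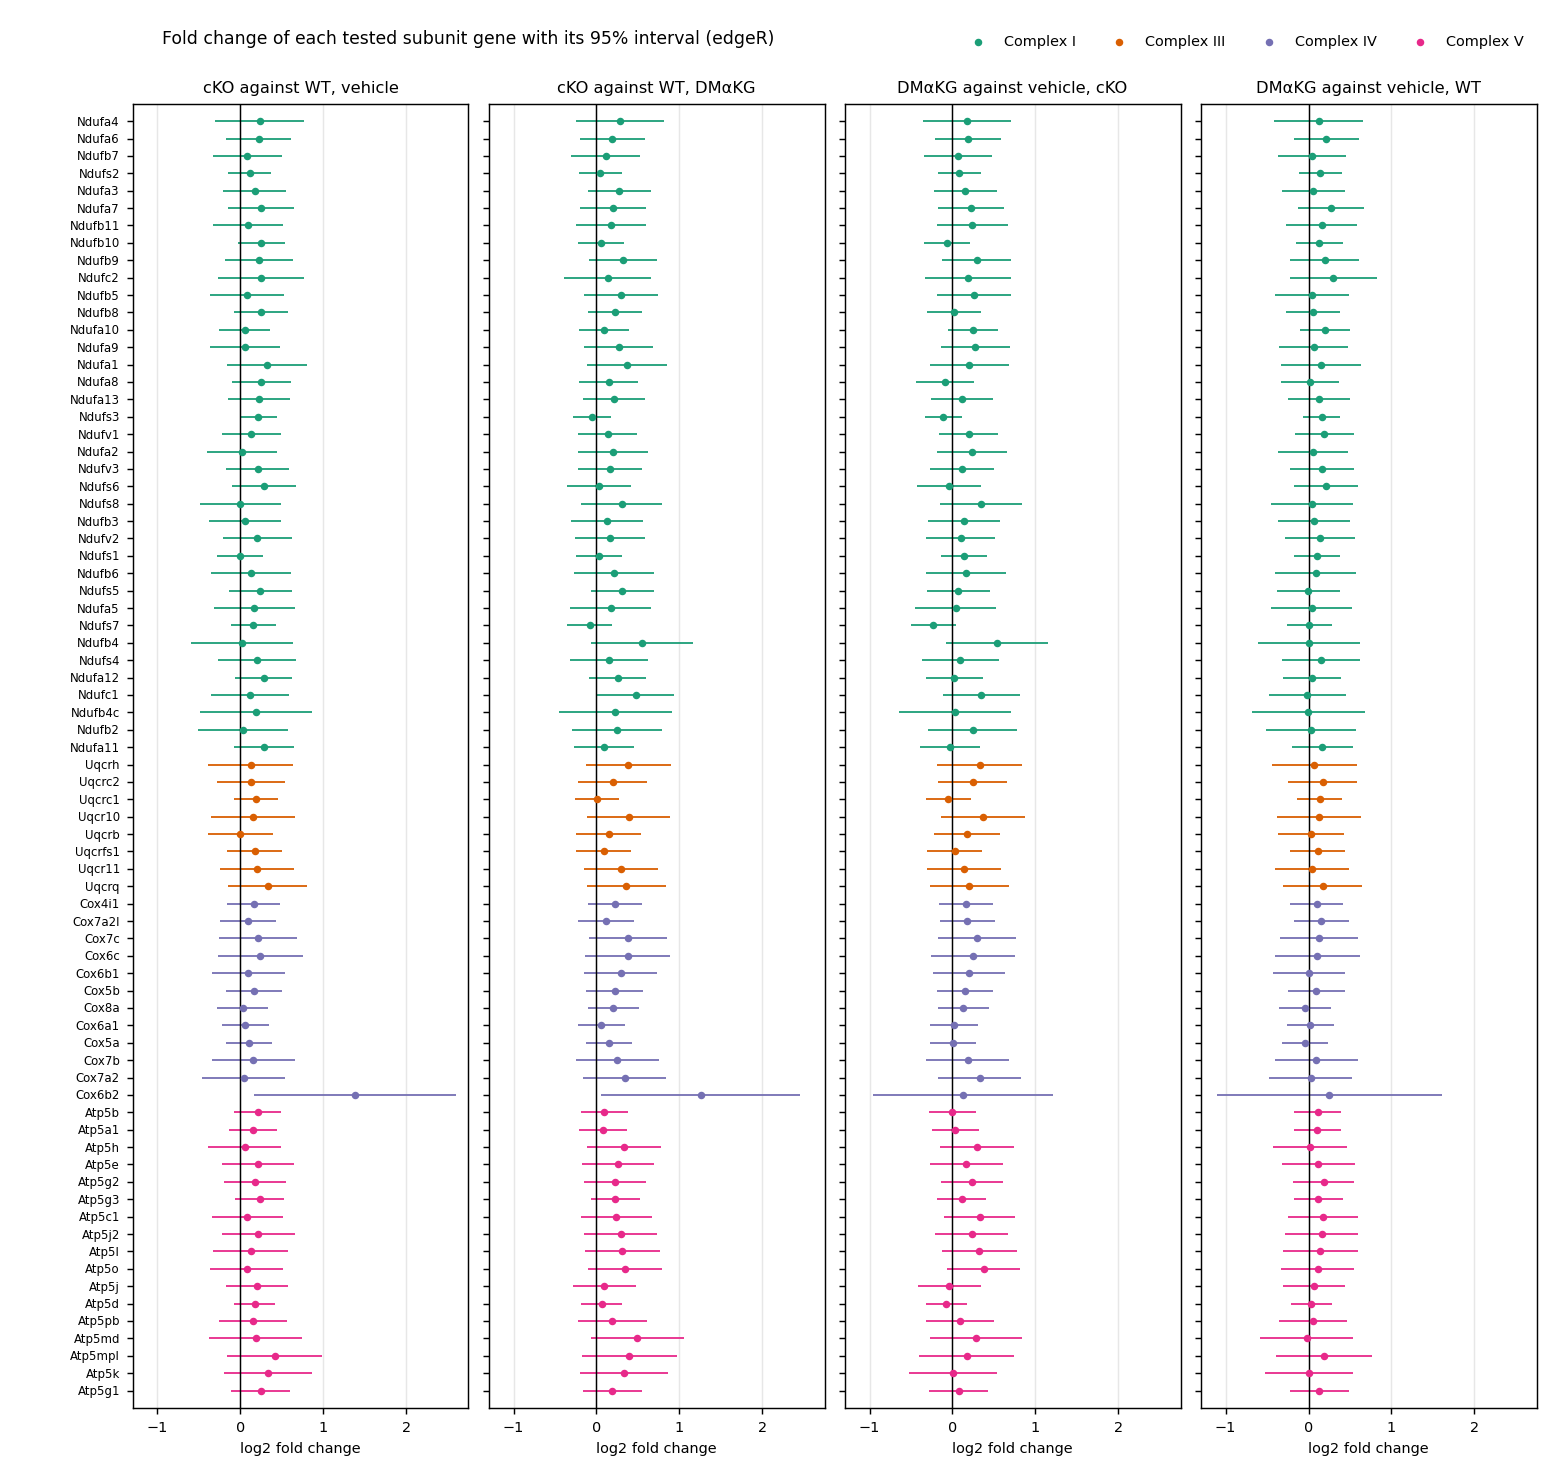
Log2 fold change of each of the 74 tested subunit genes in the 4 pairwise comparisons, as points with their 95% intervals from edgeR, coloured by complex. Most points lie just to the right of 0, and only the intervals of Cox6b2 in both genotype comparisons and of Ndufc1 with DMαKG leave out 0.

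The question of the next comparison was whether DMαKG changes these RNAs within a genotype. In cKO mice 0 of 74 subunit genes passed (smallest adjusted p = 0.345, edgeR), and 0% of all genes did. At an unadjusted p below 0.05 there were 0, where 17.3% of all genes were below it. Log2 fold changes were above 0 for 64 of 74, against 50.4% of all genes, with a median of 0.16. The median was -0.02 without cKO with DMαKG replicate 3, and 0.32 without cKO with vehicle replicate 4, when 17 of 74 subunit genes and 15.5% of all genes had an unadjusted p below 0.05. It was also 0.33 without cKO with DMαKG replicate 2, when 20 of 74 subunit genes and 22.8% of all genes did. It was 0.04 without cKO with vehicle replicate 2 and 0.11 without replicate 3. The size of this median thus depended on single libraries of both cKO groups.

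Ndufs7 (chromosome 10, 80249105 to 80256794), the core subunit of complex I that holds its last iron-sulfur cluster, went against the majority. It had 21.0, 20.9 and 22.4 CPM in cKO mice given DMαKG, against 23.5, 24.1 and 28.0 CPM in cKO mice given vehicle. The log2 fold change was -0.23 (SE 0.13, edgeR adjusted p = 0.350), and it was the only subunit gene whose DMαKG values all lay below the vehicle values, where 12.2% of all genes did so. None lay wholly above, where 8.91% of all genes did. Atp5b averaged 734 ± 20.1 CPM with DMαKG and 734 ± 117 CPM with vehicle in cKO mice, with a log2 fold change of -0.001 (95% interval -0.29 to 0.28).

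Among the genes with the smallest p-values in cKO mice, Atp5c1, the γ subunit that forms the rotating shaft, averaged 244 ± 70.2 CPM with DMαKG and 194 ± 42.6 CPM with vehicle. Cox7a2, a small complex IV subunit whose gene overlaps Tmem30a, averaged 43.1 ± 14.7 CPM with DMαKG and 34.4 ± 10.2 CPM with vehicle. In both genes the SD with DMαKG exceeded the difference.

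In WT mice 0 of 74 subunit genes passed for DMαKG against vehicle (smallest adjusted p = 0.999, edgeR), and 0% of all genes did. At an unadjusted p below 0.05 there were 0, where 2.73% of all genes were below it. Log2 fold changes were above 0 for 68 of 74, against 49.8% of all genes, with a median of 0.11. This median was 0.04 without WT with DMαKG replicate 1 or without WT with vehicle replicate 3, and 0.18 without WT with DMαKG replicate 3, the ends of its range when each library was left out in turn. It did not change sign in those 12 fits, unlike the medians of cKO against WT with vehicle and of DMαKG in cKO mice.

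In 5 genes, Ndufs3, Ndufs6, Ndufa7, Ndufb9 and Cox7a2l, all WT values with DMαKG lay above all WT values with vehicle, where 4.59% of all genes did so. Ndufs6 and Ndufb9 were picked after the values were seen. Ndufa7, an accessory subunit of the matrix arm, had 37.3, 35.3 and 30.8 CPM with DMαKG against 30.2, 24.8 and 30.7 CPM with vehicle in WT mice (log2 fold change 0.27, SE 0.18). Ndufs3 had 48.0, 47.3 and 43.4 CPM with DMαKG against 41.7, 39.9 and 42.6 CPM with vehicle in WT mice (log2 fold change 0.16, SE 0.10). None of the 74 genes lay wholly below, where 3.86% of all genes did. Atp5g2 averaged 114 ± 9.70 CPM with DMαKG and 101 ± 8.95 CPM with vehicle, and Uqcrc2, core protein 2 of complex III, whose gene overlaps Pdzd9, 173 ± 23.7 CPM with DMαKG and 154 ± 10.7 CPM with vehicle.

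The difference between the genotypes in their response to DMαKG was tested as an interaction, and 0 of 74 subunit genes passed (smallest adjusted p = 0.955, edgeR), as did 0% of all genes. At an unadjusted p below 0.05 there were 0, where 3.64% of all genes were below it. The median interaction was 0.04, and that of Ndufs3 was -0.27 (SE 0.15, unadjusted p = 0.089, edgeR adjusted p = 0.955). A test for any difference among the 4 groups gave 0 of 74 (smallest adjusted p = 0.319, edgeR), where 0.473% of all genes passed, and 1 at an unadjusted p below 0.05, Cox6b2, where 14.6% of all genes were below it. Comparisons that share a group share its 3 libraries, so their counts are not independent of each other.

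The subunit genes tended to deviate together within a library, and mice of the same group differed. For each gene the log2 CPM in a library was set against its mean over the 12 libraries. The median of this deviation over the 74 genes was 0.12, -0.14 and 0.55 in cKO replicates 1, 2 and 3 given DMαKG, and 0.09, -0.01 and -0.16 in WT replicates 1, 2 and 3 given DMαKG. It was -0.21, -0.09 and 0.34 in cKO replicates 2, 3 and 4 given vehicle, and -0.11, -0.24 and -0.06 in WT replicates 2, 3 and 4 given vehicle. Both cKO groups thus spanned a wider range than the WT groups, and of the other 4 cKO libraries 3 lay within the WT range and 1, at 0.12, just above it.

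In cKO with vehicle replicate 4 all 74 genes were above their own mean, and in cKO with DMαKG replicate 3 it was 70 of 74. In WT with vehicle replicate 3 it was 0 of 74 and in cKO with vehicle replicate 2 it was 2 of 74. Cox6b2 and Ndufs7 were those 2. The highest value of a gene was in cKO with DMαKG replicate 3 for 53 genes and in cKO with vehicle replicate 4 for 20. The lowest was in WT with vehicle replicate 3 for 33 genes and in cKO with vehicle replicate 2 for 18.

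**Figure D3:**
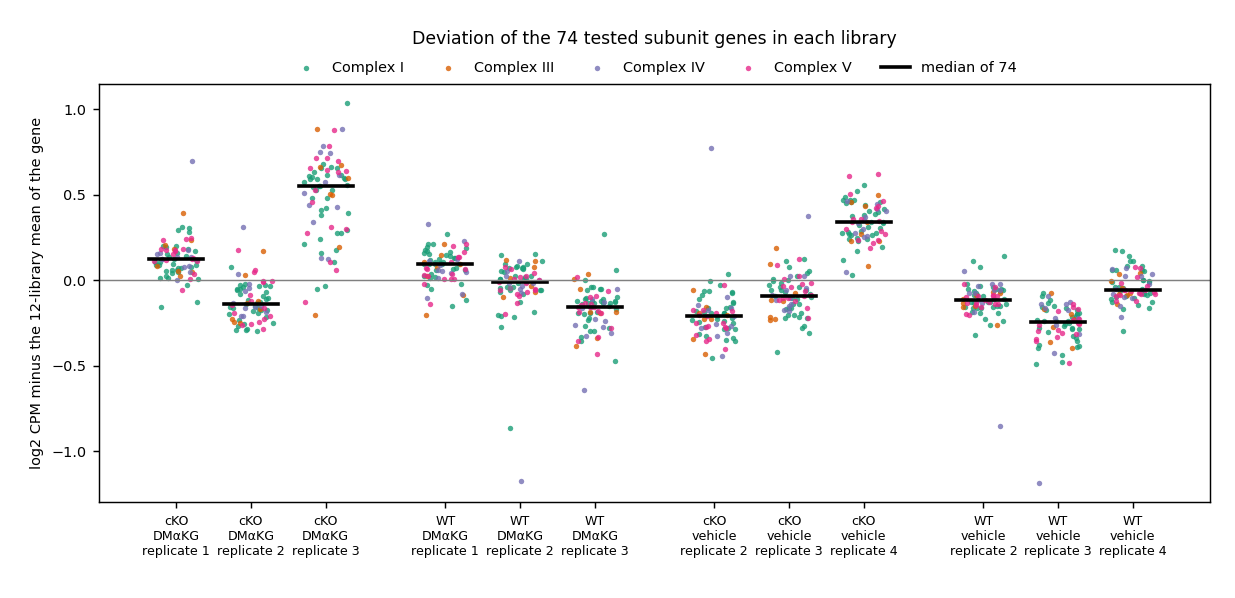
Log2 CPM of each of the 74 tested subunit genes minus its 12-library mean, by library, with 1 point per gene coloured by complex and the median as a bar. The points of a library move together, with medians of 0.55 in cKO with DMαKG replicate 3 and 0.34 in cKO with vehicle replicate 4.

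**Figure D4:**
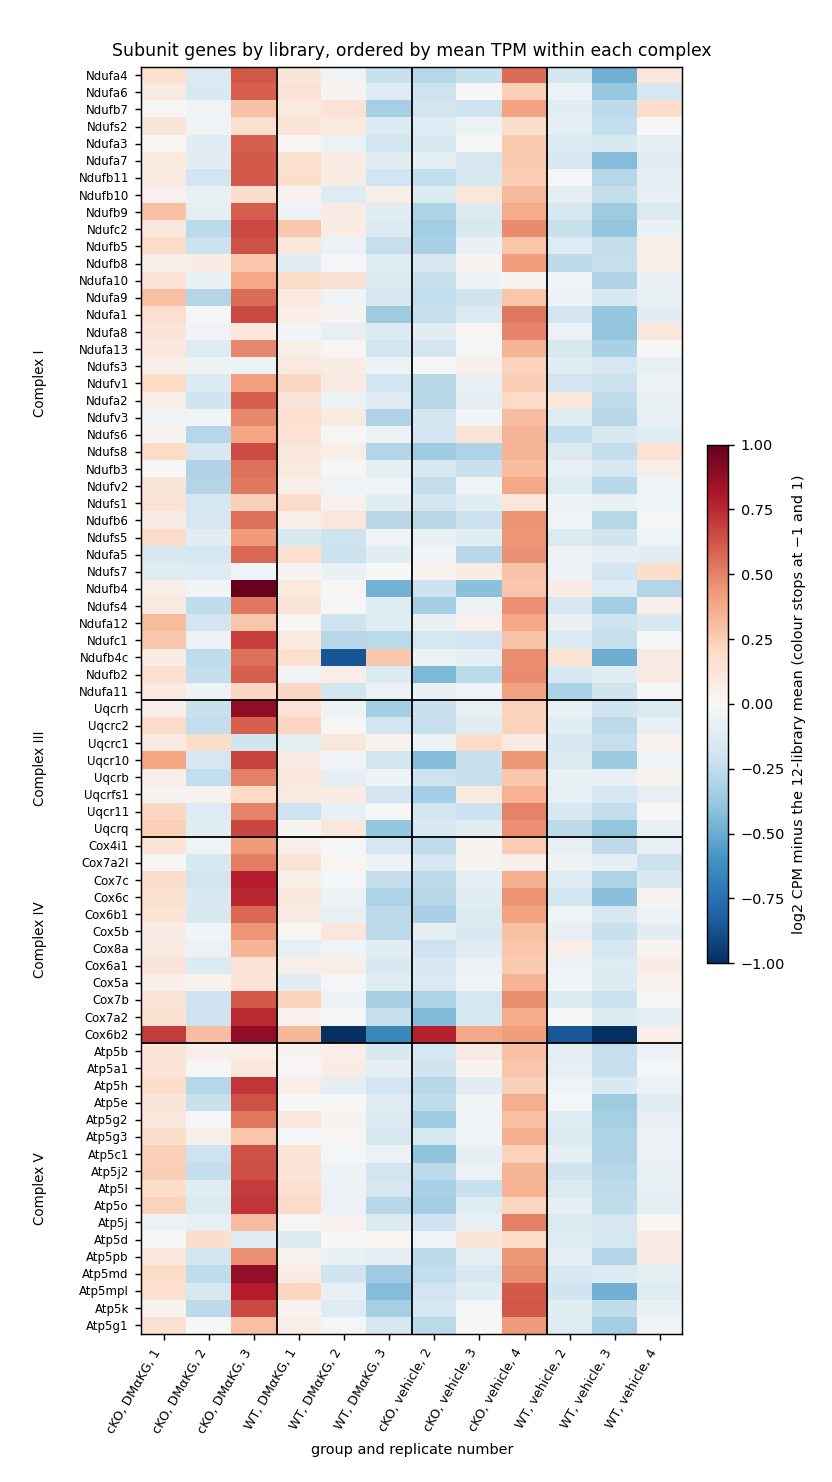
The same deviations as a heat map, with genes in rows by complex and mean TPM and libraries in columns by group. The 2 red columns are cKO with DMαKG replicate 3 and cKO with vehicle replicate 4, and Ndufs3, Ndufs7, Uqcrc1 and Atp5d are pale or blue in the first of them.

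In cKO with DMαKG replicate 3 the genes did not deviate equally. Deviations reached 1.04 for Ndufb4, 0.89 for Uqcrh, 0.88 for Atp5md and 0.79 for Cox7c, while those of Uqcrc1 (-0.20), Atp5d (-0.12), Ndufs3 (-0.05) and Ndufs7 (-0.03) were below 0. The genes below 0 are core subunits of complexes I and III and the δ subunit of the ATP synthase shaft, and the 4 named above them are small accessory subunits. Neither class was uniform. The core subunits Ndufs8 (0.66) and Uqcrc2 (0.60) were high in this library, and the accessory subunits Ndufa8 (0.10) and Ndufb10 (0.18) were lower. Grouped by textbook role, after the values were known, the median deviation in this library was 0.24 for the 7 core subunits of complex I and 0.56 for the 30 accessory ones. It was 0.20 for the core proteins and Rieske protein of complex III (3 genes, from -0.20 to 0.60) and 0.66 for its 5 small subunits. It was 0.11 for the 5 F1 subunits of ATP synthase (from -0.12 to 0.64) and 0.70 for its 5 small membrane subunits.

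In cKO with vehicle replicate 4 the same roles differed less, with 0.24 and 0.36 for core and accessory complex I subunits and 0.27 and 0.46 for the F1 and small membrane subunits of ATP synthase. Transcript length moves with these roles. The median length was 1509 bases for core and 659 for accessory subunits of complex I, 1653 and 535 for the 2 classes of complex III, and 1166 and 366 for the F1 and small membrane subunits of ATP synthase.

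The subunit transcripts were short, with a median of 680 bases against 2853 bases over all tested genes with a length. Over all genes, cKO with DMαKG replicate 3 and cKO with vehicle replicate 4 had the steepest length trends, with log2 CPM falling by 0.137 and 0.076 per doubling of transcript length relative to the mean of the libraries. The next was cKO with DMαKG replicate 1 at -0.037, and WT with vehicle replicate 3 was at the other end with 0.063. Across the subunit genes the correlation of deviation with log2 length was -0.46 in cKO with DMαKG replicate 3 and -0.40 in cKO with vehicle replicate 4 (Pearson's r over 73 genes, a description). In the other libraries it lay between -0.05 (cKO with vehicle replicate 2) and 0.32 (WT with DMαKG replicate 2), with 0.13 in WT with vehicle replicate 3. The median deviation of 80 cytosolic ribosomal protein genes, with a median length of 677 bases, was 0.77 in cKO with DMαKG replicate 3 and 0.14 in cKO with vehicle replicate 4. For 78 mitochondrial ribosomal protein genes, with a median length of 998.5 bases, it was 0.23 and 0.25 in the same libraries. The part of length in the subunit values was not tested beyond the fits that follow.

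With a length and GC trend removed from each library, the median log2 fold change of the 74 genes was 0.10 for cKO against WT with vehicle, 0.09 with DMαKG, 0.04 for DMαKG in cKO mice and 0.06 in WT mice. The genes above 0 then numbered 63, 60, 47 and 52 of 74. Without the 2 libraries the medians were -0.004, 0.03, 0.15 and 0.11, with 34, 50, 65 and 68 genes above 0. The genotype medians were near 0 without these libraries, and the DMαKG medians were close to those with all libraries. In cKO mice both groups compared had lost their highest library, and in WT mice no library was lost. This closeness was therefore largely built in and does not show that the DMαKG medians are steady. In cKO mice that median was -0.02 without only cKO with DMαKG replicate 3 and 0.32 without only cKO with vehicle replicate 4. The 2 libraries were picked after the values were seen and were the highest of their groups in the subunit genes. Leaving them out had to lower the cKO medians, so this fit cannot show whether the genotypes differ.

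**Figure D5:**
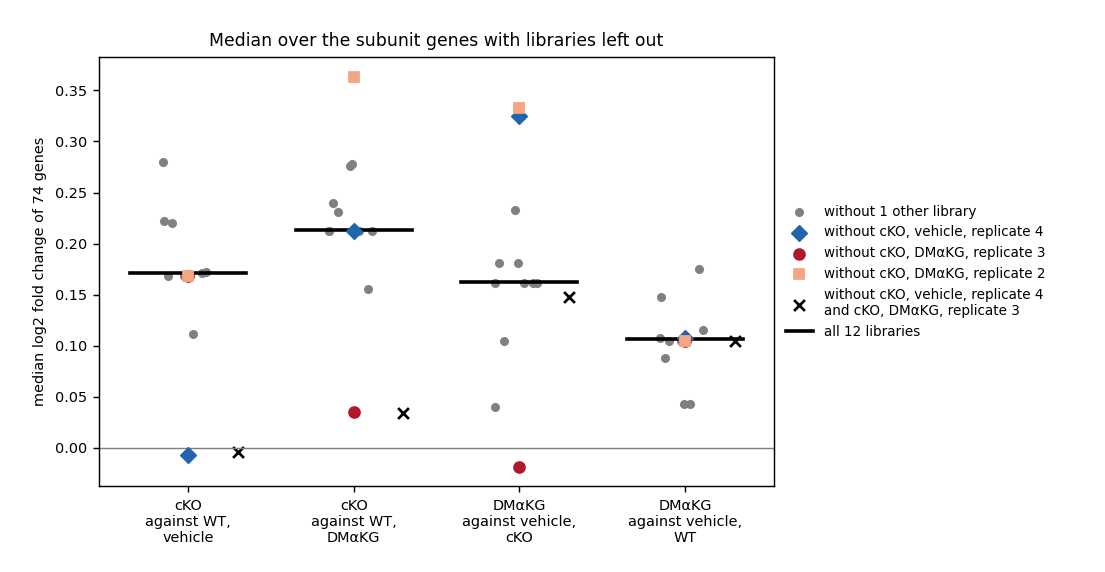
Median log2 fold change of the 74 subunit genes in the 4 pairwise comparisons, with all 12 libraries (bar), without 1 library (points) and without both high cKO libraries (crosses). The genotype medians fall to about 0 without cKO with vehicle replicate 4 (vehicle) or cKO with DMαKG replicate 3 (DMαKG). Each is the highest library of its group in these genes, so some fall was built in.

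On the TPM scale the same libraries stood out in another order. The 80 genes summed to 15243, 13613 and 17045 TPM in cKO mice and 14614, 14392 and 13906 TPM in WT mice given DMαKG. They summed to 13307, 13937 and 17844 TPM in cKO mice and 14030, 13258 and 15254 TPM in WT mice given vehicle. The means were 15300 ± 1717 TPM in cKO and 14304 ± 362 TPM in WT mice given DMαKG, and 15029 ± 2458 TPM in cKO and 14181 ± 1006 TPM in WT mice given vehicle (SD, n = 3 each). The subunits made up 1.33% to 1.78% of all TPM. In both treatments the difference of the means was smaller than the cKO SD.

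Markers of other cells also moved with the libraries. The 16 markers of macrophages and monocytes summed to 127 to 357 CPM in cKO mice and 74.6 to 296 CPM in WT mice given DMαKG, and to 55.1 to 164 CPM in cKO mice and 101 to 294 CPM in WT mice given vehicle. The highest sum was that of cKO with DMαKG replicate 3. This library also had the highest sums of the 14 dendritic cell markers (304 CPM), the 9 B cell markers (46.2 CPM) and the 8 neutrophil markers (41.0 CPM). The same held for the 8 CD8 T and NK cell markers (36.9 CPM). It did not hold for the 6 erythroid markers (11.8 CPM, against 24.1 CPM in WT with vehicle replicate 2). Of the neutrophil markers 5, and of the dendritic cell markers 4, averaged below 1 CPM. In cKO with vehicle replicate 4 the macrophage, dendritic cell, B cell and neutrophil sums were 92.7, 108, 16.8 and 5.36 CPM. These lay within the range of the other libraries, and the neutrophil sum was the second highest of the 12. The part of other cells in the subunit values was not tested.

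The steadiest subunit genes were Ndufs3, with an SD of 0.11 of log2 CPM over the 12 libraries, Atp5d with 0.13, which overlaps Cbarp, and Ndufs7 with 0.13. The most variable ones apart from Cox6b2 were Ndufb4 with 0.40, Ndufb4c with 0.39, Atp5mpl with 0.38 and Atp5md with 0.36. The median SD was 0.25 for the 74 genes and also 0.25 over all tested genes. The 2 medians were thus alike, but the median level was 45.1 CPM for the 74 genes and 26.1 CPM over all tested genes. Variation at matched level was not compared.

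Of the 80 genes 3 are X-linked, Ndufa1, Ndufb11 and Cox7b. The Y-linked Ddx3y was at 0.518 CPM or less in cKO with DMαKG replicates 1 and 3 and in WT with vehicle replicate 3, at 22.6 CPM in WT with DMαKG replicate 2, and at 109 to 241 CPM elsewhere, so the groups differed in this respect. Ndufa1, a membrane-arm subunit whose gene overlaps Rnf113a1, had 26.9, 23.7 and 38.2 CPM in cKO mice against 25.2, 24.5 and 18.8 CPM in WT mice given DMαKG. Ndufb11 (overlapping Rbm10) and Cox7b had log2 fold changes of 0.18 and 0.25 for cKO against WT with DMαKG and of 0.10 and 0.16 with vehicle, within the range of the autosomal subunits. With a Y-linked expression covariate in the fit, the median of the 74 genes was 0.19 for cKO against WT with vehicle, 0.18 with DMαKG, 0.09 for DMαKG in cKO mice and 0.11 in WT mice.

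Lists of related genes gave the setting. All 4 subunits of complex II, the succinate dehydrogenase, were tested and 0 passed in any comparison. Sdhb, its iron-sulfur subunit, averaged 86.5 CPM in cKO mice given DMαKG against 67.3 CPM in cKO mice given vehicle (log2 fold change 0.36, edgeR adjusted p = 0.327). Sdhd, a membrane anchor, averaged 62.5 CPM in cKO mice given DMαKG against 51.8 CPM in cKO mice given vehicle (log2 fold change 0.27, edgeR adjusted p = 0.483).

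Among 10 tested carriers and subunits that the naming rule does not reach, 0 passed. The smallest unadjusted p belonged to Gpd2, the mitochondrial glycerol-3-phosphate dehydrogenase, with 15.2 CPM in cKO and 20.0 CPM in WT mice given DMαKG (log2 fold change -0.39, edgeR adjusted p = 0.315). Higd2a, an assembly and supercomplex factor of complex IV, had 23.0 CPM in cKO mice given DMαKG and 28.6 CPM in cKO mice given vehicle (log2 fold change -0.32, edgeR adjusted p = 0.253).

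Of 48 tested assembly factors 0 passed. Ttc19, which acts in complex III assembly, had the smallest p-values. It averaged 117 CPM in cKO mice given DMαKG against 74.3 CPM in cKO mice given vehicle (log2 fold change 0.66, SE 0.13, edgeR adjusted p = 0.125). It averaged 74.3 CPM in cKO against 99.2 CPM in WT mice given vehicle (log2 fold change -0.42, edgeR adjusted p = 0.384). Tmem186, an assembly factor of complex I, averaged 8.66 CPM in cKO mice given DMαKG against 15.1 CPM in cKO mice given vehicle (log2 fold change -0.80, edgeR adjusted p = 0.195). Ttc19 overlaps Ncor1 and Tmem186 overlaps Pmm2, so the counts of both are uncertain.

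Of 18 tested regulators of nuclear respiratory genes and of mitochondrial transcription, 0 passed in any comparison. For DMαKG against vehicle in cKO mice 8 of them had an unadjusted p below 0.05, where 17.3% of all genes did, and 7 of the 8 estimates were below 0. Over all 18 regulators 11 estimates were below 0, with a median of -0.12. Yy1 averaged 145 CPM with DMαKG and 201 CPM with vehicle in cKO mice (log2 fold change -0.46, edgeR adjusted p = 0.156), and Pprc1, a coactivator related to PGC-1α, 42.5 CPM with DMαKG and 59.4 CPM with vehicle (log2 fold change -0.48, edgeR adjusted p = 0.187). Gabpa, which overlaps Atp5j, averaged 94.1 CPM with DMαKG and 113 CPM with vehicle in cKO mice (log2 fold change -0.26, edgeR adjusted p = 0.210). Among the subunit genes 64 of 74 had estimates above 0 in the same comparison. The median deviation of the regulators was lowest, at -0.20, in cKO with DMαKG replicate 3, the library where that of the subunit genes was highest. The part of this library and of its length trend was not tested for the regulators.

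The mitochondrial ribosomal protein genes, also nuclear-encoded, showed smaller medians than the subunit genes. Over 78 tested genes the median log2 fold change was 0.09 for cKO against WT with vehicle, 0.08 with DMαKG, 0.01 for DMαKG in cKO mice and 0.04 in WT mice. The 80 cytosolic ribosomal protein genes had 0.16, 0.31, 0.36 and 0.19 in the same order. No test of the difference between these classes was made.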

How the data were processed

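RNA of sorted Tregs was sequenced in 12 libraries, 3 for each of 4 groups, with groups and replicate numbers taken from the sample labels. P-values set a difference between groups against the spread between these libraries, with 1 estimate of spread per gene shared by all 4 groups. The per-library median of the subunit genes had an SD of 0.35 in cKO mice given DMαKG and 0.29 in cKO mice given vehicle. In WT mice it was 0.13 with DMαKG and 0.10 with vehicle. Per the submitters' processing notes, the reads passed through HISAT2 2.0.5, featureCounts 1.5.0-p3 or DESeq2 1.16.1 in an unstated order, on mm10. No source used here states whether counting used strand, so subunit genes overlapping other listed genes (17 of 80) are called uncertain.

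The authors deposited an estimated count per gene and library, 36.0% of them not whole, and these were rounded although whole numbers had been anticipated. Deposited TPM and FPKM, scaled by gene length, served for levels and for implied lengths and entered no test. RefSeq GRCm38.p6 matched 17901 gene IDs and supplied coordinates and promoters; lengths are of the GENCODE transcript nearest to the implied length.

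The quasi-likelihood test of edgeR 4.0.16 (R 4.3.3; TMM, robust, default expression filter, 1 mean per group) used all 12 libraries and 12903 genes, leaving 8 residual degrees of freedom. Benjamini-Hochberg adjustment ran over all genes of a comparison, with a threshold of 0.05. The test was also run on simulated counts, with larger changes than the subunit medians and no deviations shared by the genes of a library. That run therefore does not bear on the small differences described here. Deviations use log2 CPM with a prior count of 2, and errors are SDs over libraries. With 1.57e+07 to 1.89e+07 counts per library, precision is limited by 3 mice a group and, for Cox6b2 and the untested forms, by low counts.

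Alternatives were DESeq2 1.42.0, voom of limma 3.58.1 with quality weights, other scalings and filters, covariates, a length and GC correction and left-out libraries. Named genes were, in each complex, the 2 with the smallest p in each pairwise comparison and the highest and lowest in level, plus tissue forms, X-linked genes and the 2 with the smallest p in each related list. All genes and lists were chosen with earlier results of these data known, and the grouping by role after the values were seen.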

Additional observations from a re-analysis of the deposited data

How the results depend on the processing

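The count of 0 subunit genes at an adjusted p of 0.05 held in all 6 comparisons under every alternative run, among them DESeq2 and voom; the smallest adjusted p of a subunit gene was 0.073 (voom, any difference among the groups). The number of all genes called moved with the tool. For cKO against WT with vehicle (8) it was 3 with DESeq2 size factors, 100 with DESeq2, 245 with voom, 0 with only the groups compared, 3 with the Y-linked covariate, 15 with length and GC trends removed, 3 without the 3 libraries at one end of the first principal component (cKO with vehicle 4, WT with vehicle 4 and WT with DMαKG 3) and 14 without the 2 high cKO libraries, an alternative chosen after seeing the data. For cKO against WT with DMαKG (24) it was 143 with DESeq2, 237 with voom, 3 with only the groups compared, 4 with the Y-linked covariate and 1 without the 3 libraries. For DMαKG in cKO mice (0) it was 4 without a filter, 389 with DESeq2, 450 with voom, 4 with only the groups compared and 15 without the 3 libraries. In WT mice (0) it was 2 with DESeq2 and 8 with voom, for the interaction (0) 1 and 1, and for any difference (61) 661 with DESeq2, 1173 with voom and 15 with the covariate. The cause was not tested.

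Leaving out each library in turn gave 1 to 8, 1 to 33, 0 to 137, 0 to 0, 0 to 0 and 6 to 193 genes called in these comparisons (1 to 5 for the first without a cKO vehicle library). The medians of the subunit genes ran from -0.007 to 0.28, 0.03 to 0.36, -0.02 to 0.33, 0.04 to 0.18 and, for the interaction, -0.12 to 0.23. Without cKO with DMαKG replicate 3, DMαKG against vehicle in cKO mice reversed for Uqcrh (-0.063) and Cox7c (-0.013). Leaving out cKO libraries with DMαKG, they reached 0.56 and 0.51. With voom the medians were 0.08, 0.09, 0.18, 0.16 and -0.01, and without the 3 libraries 0.02, 0.16, 0.34, 0.21 and 0.14. Tkt had an adjusted p of 0.0803 with vehicle when only the groups compared were fitted, 0.0865 without cKO with vehicle replicate 2 and 0.0505 without replicate 3.

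A replicate block gave 1, 0 and 3 genes called for cKO against WT with vehicle, with DMαKG and for any difference, 0 subunit genes in all comparisons, and an adjusted p of 0.213 and 0.196 for Tkt. The subunit medians with the block were 0.15, 0.20, 0.25, 0.19 and 0.04, with 74 of 74 genes above 0 for DMαKG in WT mice. Same-numbered libraries of the 2 genotypes did not consistently deviate together. Their correlations were -0.12, 0.14 and 0.47 with vehicle, and -0.25, -0.09 and -0.28 with DMαKG. So few correlations cannot show whether same-numbered libraries share more than a number. Depth limits the 6 untested forms and Cox6b2.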
